A study of Rattus norvegicus with 12 samples.

Results

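The 39 genes described here encode the proteins that build, cross-link, cap and anchor actin filaments, the transcription factor SRF, and genes known as targets of SRF or of the YAP co-activator. The rule that chose them lists them by name and uses no measured value, although it was written with earlier results of these data known. All 39 were found among the 28111 gene names of the files, with Ccn1 under its older symbol Cyr61 and Ccn2 under Ctgf. By role they comprised 3 actins, 7 crosslinkers and adhesion proteins, 4 transgelins and calponins, 4 tropomyosins, 3 chains of myosin II, 4 proteins that bind monomers or sever or cap filaments, 3 ERM proteins, SRF itself, 5 YAP targets and Hippo members, and 5 LIM domain proteins.

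Messenger RNA was measured in 12 libraries of primary neuroglial cultures of the cerebral cortex of newborn Wistar rats, taken at 10 days in vitro (DIV) and 4 h after an addition. The 4 conditions had 3 libraries each. They were the intact control (IC), extracellular vesicles (EV, 10 µg/mL), proteins of 3–100 kDa (15 µg/mL) and the total secretome (given at a dose of 45 µg/mL). The vesicles came from the conditioned medium of human glial progenitor cells grown from the induced pluripotent stem cells of a single donor, and the series title names secreted factors of such cells for the whole set. The article reports IC and EV and does not describe the preparation of the other 2 materials. It tested IC against EV with edgeR and shows the control relative to EV. Among its down-regulated genes it lists categories such as actin filament organisation and focal adhesion. That test differs from the one used here, so the counts below are not set against its lists. Per the article's methods, all cultures had received cytosine arabinoside on DIV 3, which holds back dividing glia. The article states that its experiments were repeated on unrelated cultures, and a legend to its supplement names day as a covariate taken out of the IC and EV data for an ordination. No source used here ties a library or a replicate number to a culture, litter or day, so the p-values below measure the spread between libraries, which may be technical. In such mixed cultures, fewer cells of a type and less RNA per cell cannot be told apart.

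Actin exists as monomers and as filaments. Crosslinkers such as α-actinin and filamin bind filaments to each other, vinculin, zyxin and talin tie them to integrin adhesions, tropomyosins coat them, and myosin II pulls on them. A pair of transcription systems is known to read the state of this skeleton. MRTF cofactors are held by monomeric actin and, once released, join SRF at CArG boxes of many cytoskeletal genes, while YAP and TAZ enter the nucleus when tension is high and act through TEAD factors. SRF also serves a second group of genes, the immediate early genes such as Fos and Egr1, with ternary complex cofactors of the Elk family.

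Values are TPM, transcript abundances scaled for transcript length that sum to 1000000 in each library. Read depth cannot be recovered from them and is unknown. Differences were tested with limma on log2(TPM + 1), a scale that understates changes of low genes, for genes that reached 1 TPM in 3 or more of the 6 libraries compared. In what follows, "rose" and "fell" are used for a Benjamini-Hochberg adjusted p under 0.05, and "past the nominal threshold" for an unadjusted p under 0.05 with a fold over 1.5. The neuron markers summed to between 3157 and 4055 TPM per library and the astrocyte markers to between 1051 and 1847, so transcripts of both labelled kinds of cell were present. Of the microglia markers, 8 of 10 stayed under 1 TPM in all 12 libraries, as did each of the 7 endothelial markers in the files. The comparisons with IC share the 3 IC libraries, so their values are given side by side and are not independent of each other.

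The 3–100 kDa proteins were followed by higher levels of many of these genes, and Actb, Actg1, cofilin, profilin and SRF were not among them. Of the 36 members tested, 11 rose, against 2.82% of all genes tested, and 2 fell, against 0.485%. Of the latter, Lmcd1 passed the filter through the IC libraries alone, here and after EV, so its calls as lower are a description. By the nominal threshold 15 were higher and 2 lower, where all genes gave 6.63% and 3.39%. For 17 members the 3 treated libraries all lay above the 3 IC libraries, a pattern seen for 10.7% of all genes. The members' median log2 fold change was 0.62, and that of all genes −0.02. With no filter the count was also 11, with Acta2 in place of Tagln. Acta2 was listed at 0 in all 3 IC libraries, so it could be called only as higher and is a description.

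After the total secretome 10 of the 36 members tested rose and 1 fell, against 1.68% and 0.289% of all genes. With no filter on low values 7 rose and 1 fell, since the adjusted p of Flnc, Tpm4 and Myl12a was then over 0.05. By the nominal threshold 16 were higher and 2 lower, where all genes gave 5.55% and 2.54%. The libraries did not overlap for 17 members that were higher, against 11.4% of all genes, and the members' median log2 fold change was 0.52, beside −0.01 for all genes.

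After EV the calls were fewer. None of the 37 members tested passed the adjusted threshold in limma, which 0.102% of all genes passed as higher. An unadjusted p under 0.05 was found for 8, and a fit of all 12 libraries together gave 2 members at an adjusted p under 0.05. The shares of all genes at these last 2 settings are not given here, so both counts are a description. By the nominal threshold 6 were higher and 1 lower, against 1.56% and 0.596% of all genes, and 8 lay above IC without overlap, against 3.22%. The median was 0.20 for the members (0.12 without EV replicate 1) and −0.01 for all genes.

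The adjusted calls leaned on single libraries to an unequal degree. After the 3–100 kDa proteins, 7 members (Actn1, Flnc, Vcl, Tagln2, Cnn2, Ezr and Cyr61) kept an adjusted p under 0.05 whichever 1 of the 6 libraries was left out. The number of members called by adjusted p went from 13 to 7 without replicate 2 or without replicate 3 of the proteins, to 8 without IC replicate 1 and to 9 without IC replicate 3. After the total secretome Tagln2 and Cnn2 kept it throughout, and the count of 11 went to 2 without secretome replicate 2 or replicate 3, to 4 without IC replicate 1 and to 6 without IC replicate 3. Of the 13 calls after the proteins, that of Zyx held in 4 of the 6 omissions, Myl12a in 3, Tpm4 and Amotl2 in 2, and Tagln in 0. That of Lmcd1 held in 0 of 3, since without any 1 IC library it no longer reached 1 TPM in 3 libraries and could not be tested. Of the 11 after the secretome, Actn1 and Vcl held in 4, Ezr and Cyr61 in 3, Flnc and Zyx in 2, and Tpm4, Myl12a and Amotl2 in 1. Each single omission left between 15 and 19 members past the nominal threshold for the proteins and between 15 and 18 for the secretome, and after EV the nominal calls of Flnc, Tagln2, Cnn2 and Cyr61 held in each omission, and that of Lmcd1 in the 3 in which it could be tested. Acta2, Ankrd1 and Myh9 did not pass the filter against IC for the proteins or the secretome, and Myh9 alone of them did for EV.

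**Figure D1:**
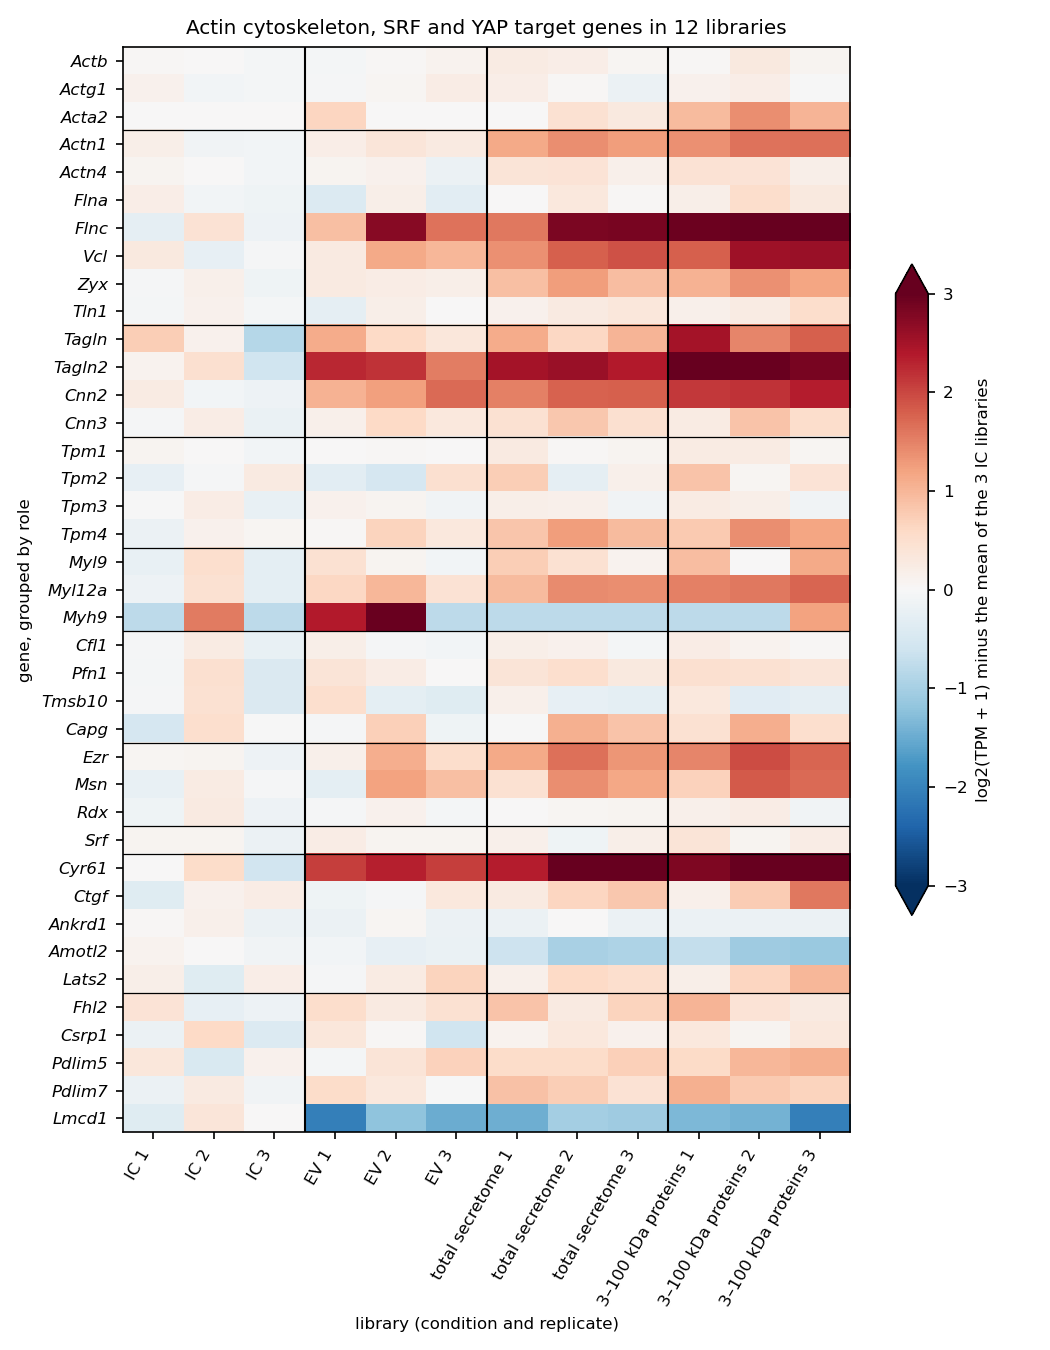
Heat map of the 39 genes (rows, grouped by role) in the 12 libraries (columns, grouped by condition), coloured by log2(TPM + 1) minus the mean of the 3 IC libraries, with red for higher, blue for lower and colours saturated at 3. Red rows such as Flnc, Vcl, Tagln2, Cnn2 and Cyr61 deepen from EV to the total secretome to the 3–100 kDa proteins, while Actb, Actg1, Cfl1, Rdx and Srf stay pale and Amotl2 and Lmcd1 are blue.

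Actb and Actg1, the cytoplasmic β- and γ-actins, were among the most abundant transcripts of the set and did not pass any threshold. Actb was at 2659, 2593 and 2496 TPM in the 3 IC libraries, 2487, 2637 and 2794 after EV, 3056, 2969.6 and 2692 after the total secretome and 2657, 3158 and 2726 after the 3–100 kDa proteins. Actg1 was at 2075, 1796 and 1835 TPM in the 3 IC libraries, 1844, 1972 and 2203 after EV, 2193, 1958 and 1671 after the total secretome and 2068, 2163 and 1889 after the 3–100 kDa proteins. The treated and control libraries overlapped for both genes in each comparison but that of Actb after the total secretome, where the 3 treated libraries were the higher. The log2 fold changes of Actb lay between 0.02 and 0.19 and those of Actg1 between 0.04 and 0.13, with 95% intervals for the proteins of −0.25 to 0.58 and −0.24 to 0.50. Salmon divides reads between near-identical transcripts, so the split between these 2 actins is uncertain. Acta2, smooth muscle α-actin, was listed at 0 in all 3 IC libraries and read 0.572, 0 and 0 TPM after EV, 0, 0.363 and 0.233 after the total secretome and 0.926, 1.64 and 1.02 after the proteins. Only after the proteins was it above 0 in all 3 libraries, and at these levels it did not pass the filter. In the fit with no filter its adjusted p after the proteins was 0.0163, against IC libraries that are all listed at 0, so no fold is given.

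Among crosslinkers and adhesion proteins Actn1, Flnc, Vcl and Zyx rose after the 3–100 kDa proteins and after the total secretome. Actn4, Flna and Tln1 passed no threshold in any comparison with IC, although an unadjusted p under 0.05 was found for Actn4 and Flna after the proteins and for Actn4 after the secretome. Actn1 encodes α-actinin-1, which bundles filaments at adhesions, and was at 30.2, 24.6 and 24.9 TPM in the 3 IC libraries, 30.4, 34.5 and 31.97 after EV, 59.1, 70.6 and 64.3 after the total secretome and 69.9, 83.9 and 85.3 after the 3–100 kDa proteins. The IC and EV libraries were close to each other, with the lowest EV value just above the highest IC value, while every secretome and protein library was about 2 times or more the control level. Its log2 fold change was 1.58 (SE 0.15, adjusted p = 0.00269) after the proteins and 1.27 (SE 0.14, adjusted p = 0.00756) after the secretome. After EV it was 0.27 (SE 0.14, adjusted p = 1).

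Vcl, vinculin, which couples talin to filaments, was at 10.9, 7.16 and 8.38 TPM in the 3 IC libraries, 10.7, 20.4 and 18.5 after EV, 24.2, 32.6 and 35.2 after the total secretome and 32.5, 55.4 and 57.7 after the 3–100 kDa proteins. The secretome and protein libraries all lay above the IC libraries, and 1 EV library lay within the IC range. Vcl rose by 2.34 on the log2 scale after the proteins (SE 0.27, adjusted p = 0.00558) and by 1.71 after the secretome (SE 0.22, adjusted p = 0.0121). With EV it was 0.80 higher and past the nominal threshold, which it missed without EV replicate 2 (unadjusted p in limma 0.0689), EV replicate 3 (0.0617) or IC replicate 2 (0.0548).

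Zyx, zyxin, which gathers on strained stress fibres, was at 15.9, 18.2 and 14.9 TPM in the 3 IC libraries, 19.96, 19.3 and 18.6 after EV, 31.5, 40.5 and 31.9 after the total secretome and 34.5, 43.7 and 38.6 after the 3–100 kDa proteins. The 3 EV libraries stood slightly above IC, and the secretome and protein libraries stood well above both. The log2 fold changes were 1.23 (SE 0.15, adjusted p = 0.00778) for the proteins, 1.053 (SE 0.16, adjusted p = 0.0212) for the secretome and 0.22 (SE 0.15, adjusted p = 1) for EV. Flnc, the filamin best known from muscle, started from a low level and was at 1.96, 3.85 and 2.24 TPM in the 3 IC libraries, 5.67, 22.9 and 10.1 after EV, 9.84, 24.3 and 24.9 after the total secretome and 26.8, 36.99 and 57.9 after the 3–100 kDa proteins. None of the 9 treated libraries overlapped with IC, and the spread within each preparation was wide. Flnc rose by 3.49 on the log2 scale after the proteins (SE 0.35, adjusted p = 0.00305) and by 2.43 after the secretome (SE 0.40, adjusted p = 0.0295, or 0.0615 with no filter), and after EV it was 1.74 higher (SE 0.45) past the nominal threshold alone (adjusted p = 0.697). The ubiquitous filamin Flna ranged from 22.1 to 43.5 TPM over the 12 libraries, with a log2 fold change of 0.36 after the proteins (adjusted p = 0.265).

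**Figure D2:**
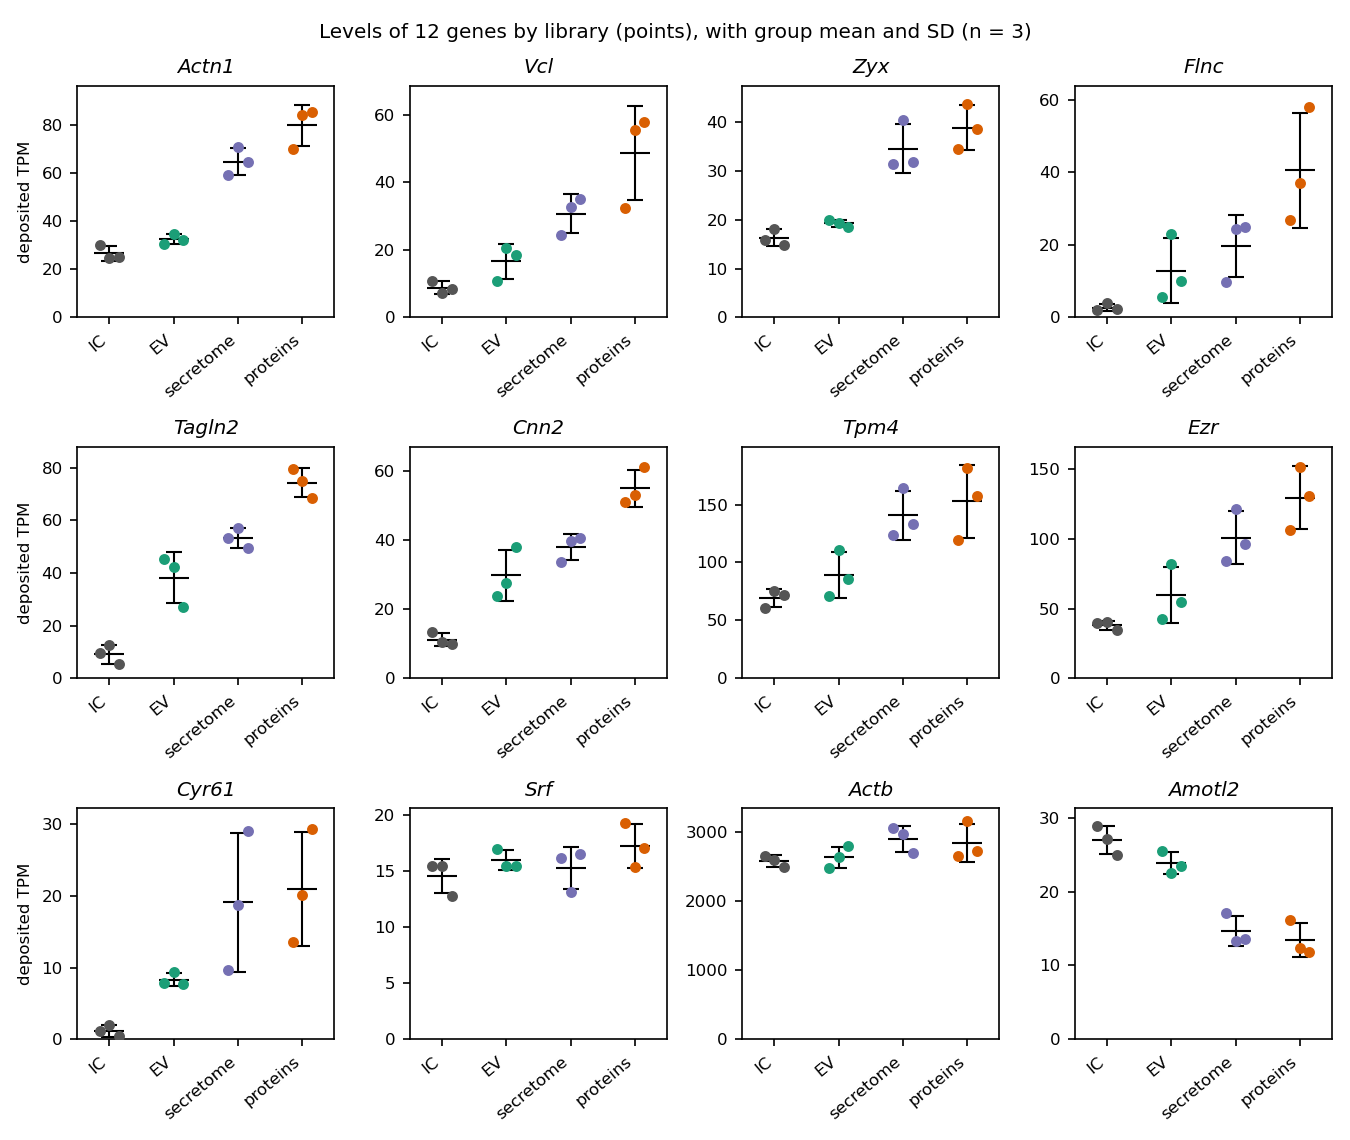
Deposited TPM of 12 genes in each library (points; vertical axes start at 0) for IC, EV, the total secretome and the 3–100 kDa proteins, with bars for the group mean and SD (n = 3). Actn1 and Zyx after EV stay near IC, at means of 32.3 and 19.3 TPM, Tagln2, Cnn2 and Cyr61 are already above IC after EV, Srf and Actb change little, and Amotl2 is lower after the secretome and the proteins.

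Transgelins and calponins, small actin-binding proteins related to each other and prominent in contractile cells, gave the largest group median of the roles with more than 1 member tested, 2.09 on the log2 scale after the proteins. Tagln2 was at 9.42, 12.6 and 5.41 TPM in the 3 IC libraries, 45.2, 42.3 and 27.2 after EV, 53.2, 57.2 and 49.5 after the total secretome and 79.6, 74.9 and 68.5 after the 3–100 kDa proteins, so each preparation set all of its libraries above all IC libraries. It rose by 2.99 after the proteins (SE 0.24, adjusted p = 0.00143) and by 2.51 after the secretome (SE 0.24, adjusted p = 0.00467). The EV value was 1.98 (SE 0.30, adjusted p = 0.0958), past the nominal threshold. Cnn2, calponin 2, was at 13.3, 10.4 and 9.83 TPM in the 3 IC libraries, 23.8, 27.5 and 38.2 after EV, 33.7, 39.8 and 40.7 after the total secretome and 51.1, 52.99 and 61.2 after the 3–100 kDa proteins, again without overlap between IC and any preparation. Its log2 fold change was 2.24 for the proteins (SE 0.17, adjusted p = 0.00129), 1.71 for the secretome (SE 0.17, adjusted p = 0.00471) and 1.32 for EV (SE 0.22, adjusted p = 0.124).

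Cnn3, calponin 3, the more abundant calponin here, was at 202, 243 and 181 TPM in the 3 IC libraries, 232, 313 and 257 after EV, 286, 366 and 289 after the total secretome and 245, 376 and 301 after the 3–100 kDa proteins. The secretome and protein libraries lay above IC and the EV libraries overlapped with it, and the changes were small. Its log2 fold change of 0.60 after the secretome was past the nominal threshold (adjusted p = 0.119), and it fell short of a fold of 1.5 at 0.49 without secretome replicate 2, 0.54 without IC replicate 1, 0.56 without IC replicate 3 and 0.58 without rescaling. Tagln, the transgelin of smooth muscle, was at 29.6, 19.1 and 9.12 TPM in the 3 IC libraries, 38.6, 26.9 and 22.2 after EV, 38.6, 27.1 and 36.2 after the total secretome and 103, 49.5 and 62.6 after the 3–100 kDa proteins. The control libraries were themselves spread widely, and only the protein libraries lay clear of them. Tagln rose by 1.95 after the proteins (SE 0.39, adjusted p = 0.0463, or 0.0798 with no filter), with an adjusted p of between 0.0598 and 0.194 when any 1 library was left out. After the secretome it was 0.93 higher and past the nominal threshold (adjusted p = 0.235), which it missed without secretome replicate 1 (unadjusted p in limma 0.0715), secretome replicate 3 (0.0809) or, by its fold, IC replicate 3 (log2 fold change 0.55).

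Tagln and Acta2 are also markers of smooth muscle and mural cells, so other markers of these cells stand beside them here. Of the 9 mural and smooth muscle markers listed, Rgs5, Kcnj8, Abcc9 and Anpep were under 1 TPM in all 12 libraries. The summed level of the 9 was between 10.2 and 12.7 TPM in IC, 6.503 and 10.2 after EV, 10.1 and 10.7 after the secretome and 8.33 and 11.7 after the proteins. Within the list 2 genes moved in opposite directions. Cnn1, calponin 1, was listed at 0 in IC and read 2.38, 1.36 and 3.44 TPM after the proteins (adjusted p = 0.0279), 0.538, 1.502 and 1.497 after the secretome and 0.525, 0.217 and 0.178 after EV. It passed the filter through the protein libraries alone, so it could be called only as higher and its value is a description. Pdgfrb, the receptor that marks pericytes, was at 3.18, 4.01 and 2.45 TPM in IC and 0.481, 0.851 and 0.321 after the proteins, a log2 fold change of −1.42 (adjusted p = 0.0234). No protein library reached 1 TPM, so it was tested through IC alone and could be called only as lower. After EV it was at 1.12, 1.73 and 0.960 TPM and after the secretome at 1.34, 1.03 and 1.202, lower past the nominal threshold as well, with log2 fold changes of −0.90 (adjusted p = 0.743) and −0.92 (adjusted p = 0.0912). None of the 9 treated libraries overlapped with IC for this gene. The part of these cells in the result was not tested.

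**Figure D3:**
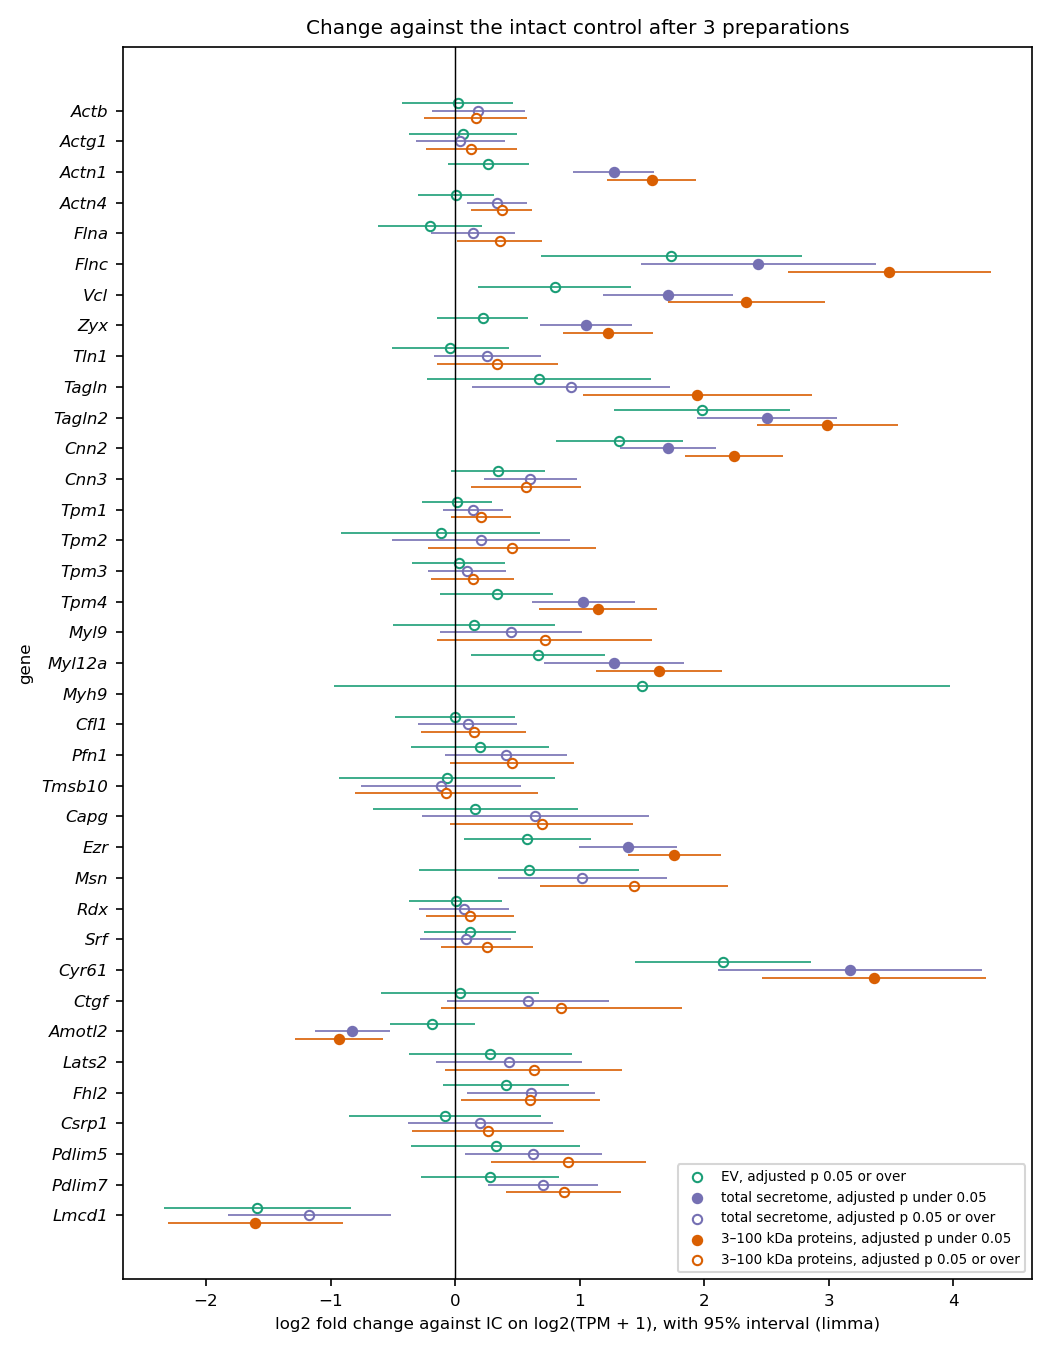
Log2 fold change against IC on the log2(TPM + 1) scale, with the 95% interval from limma, for the 37 members tested in at least 1 comparison with IC (rows); green is EV, purple the total secretome and orange the 3–100 kDa proteins, and filled points have an adjusted p under 0.05. Filled points appear for the secretome and the proteins and for no EV value, and the largest are those of Flnc, Cyr61 and Tagln2.

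Of the tropomyosins, which coat filaments and set which other proteins bind them, Tpm4 rose and the others did not pass a threshold. Tpm4 was at 60.4, 75.3 and 71.97 TPM in the 3 IC libraries, 71.1, 111 and 85.5 after EV, 124, 165 and 133 after the total secretome and 119, 182 and 157 after the 3–100 kDa proteins. All secretome and protein libraries exceeded IC, and the EV libraries overlapped with it. Tpm4 rose by 1.15 after the proteins (SE 0.20, adjusted p = 0.029) and by 1.03 after the secretome (SE 0.18, adjusted p = 0.0345, or 0.0582 with no filter), beside 0.33 after EV (adjusted p = 1). Tpm1, Tpm2 and Tpm3 had log2 fold changes between −0.12 and 0.46 against IC. Tpm1 and Tpm3 were the abundant members, at 124 to 159 and 266 to 373 TPM over the 12 libraries, and Tpm2 stayed between 0.795 and 3.61 TPM.

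Myl12a and Myl9 encode regulatory light chains of non-muscle and smooth muscle myosin II, the motor of stress fibres. Myl12a was at 28.1, 42.9 and 25.2 TPM in the 3 IC libraries, 48.4, 62.8 and 42.2 after EV, 61.7, 85.4 and 83.4 after the total secretome and 90.2, 94.7 and 107 after the 3–100 kDa proteins. Secretome and protein libraries lay above all IC libraries, while 1 EV library fell just below the highest IC value. It rose by 1.64 after the proteins (SE 0.22, adjusted p = 0.00941) and by 1.28 after the secretome (SE 0.24, adjusted p = 0.047, or 0.0805 with no filter). After EV it was 0.67 higher past the nominal threshold, which it missed without EV replicate 2 (unadjusted p in limma 0.0794), IC replicate 1 (0.0785) or IC replicate 3 (0.0698). Myl12a has a close copy, Myl12b, with which reads may be shared. Myl9 ranged from 8.08 to 23.7 TPM with no call. Myh9, the heavy chain of non-muscle myosin IIA, was listed at 0 in 8 of the 12 libraries and otherwise between 2.97 and 12.3 TPM, values too uneven for a comparison.

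None of the 4 proteins that bind monomers or sever or cap filaments passed a threshold against IC. Cfl1, the cofilin that severs filaments, ranged from 1626 to 2256 TPM, and Pfn1, the profilin that feeds monomers to growing ends, from 247 to 468 TPM. Tmsb10, a thymosin that holds monomers, was the most abundant member, at 4891 to 9359.8 TPM. The log2 fold changes of these 3 lay between −0.11 and 0.46. Capg, which caps filament ends, ranged from 0.775 to 4.29 TPM, with a log2 fold change of 0.69 (SE 0.31) after the proteins and 0.65 (SE 0.39) after the secretome, both past the nominal threshold with the replicate number as a block (unadjusted p in limma 0.0256 and 0.0239). In the fits without the block none of the 4 had an unadjusted p under 0.05 in any comparison with IC.

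The ERM proteins ezrin, radixin and moesin anchor filaments to the plasma membrane, and the 3 genes parted from each other. Ezr was at 39.8, 40.3 and 34.4 TPM in the 3 IC libraries, 42.7, 81.8 and 55.1 after EV, 84.3, 122 and 96.7 after the total secretome and 107, 152 and 131 after the 3–100 kDa proteins. Every treated library was above every IC library. Ezr rose by 1.76 after the proteins (SE 0.16, adjusted p = 0.00215) and by 1.39 after the secretome (SE 0.17, adjusted p = 0.00946), with 0.58 after EV, where its fold stayed under 1.5 (adjusted p = 1). Msn was at 15.4, 21.8 and 17.6 TPM in the 3 IC libraries, 14.5, 43.02 and 34.7 after EV, 25.05, 49.3 and 41.7 after the total secretome and 30.1, 66.7 and 60.6 after the 3–100 kDa proteins. The first library of each preparation was the lowest, and after EV it fell below IC. Msn was 1.44 higher after the proteins (SE 0.32, adjusted p = 0.0658) and 1.02 higher after the secretome (SE 0.29, adjusted p = 0.139), both past the nominal threshold only. With the replicate number as a block (same-numbered secretome and IC libraries deviated together), the adjusted p of Msn after the secretome was 0.0375. Rdx, the most abundant of the 3 in IC at 71.6 ± 12.6 TPM (SD, n = 3), ranged from 63.98 to 86.1 TPM and had log2 fold changes between 0.01 and 0.12.

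Shares within gene families restate the same differences on a scale that does not depend on library scaling. The genes set over their families, Tpm4, Ezr with Msn, and Cnn2, are those already seen to be higher. Their separation from IC is therefore a description and no second test. Tpm4 made up 13.5% ± 1.91 of the summed TPM of the 4 tropomyosins in IC (SD, n = 3), 16.3% ± 3.16 after EV, 22.8% ± 3.09 after the secretome and 23.8% ± 4.70 after the proteins. Ezr and Msn together made up 44.2% ± 2.14 of the 3 ERM transcripts in IC, 54.5% ± 8.52 after EV, 65.0% ± 4.64 after the secretome and 70.1% ± 5.87 after the proteins. Cnn2 made up 5.13% ± 1.03 of Cnn2 and Cnn3 in IC, 10.1% ± 2.52 after EV, 10.9% ± 1.31 after the secretome and 15.5% ± 2.74 after the proteins. In these 3 families all secretome and all protein libraries lay above all IC libraries, and the exact permutation test (two-sided) gave p = 0.1, the lowest value possible with 3 libraries against 3. After EV that held for Cnn2 alone, and the exact permutation p was 0.3 for Tpm4 and 0.2 for Ezr and Msn. The share of Actg1 in the 2 cytoplasmic actins was 42.4% ± 1.46 in IC and between 39.9% and 43.2% on average after the preparations, with exact permutation p-values of 0.2 to 0.6. In all, 12 such comparisons were made, and with the smallest possible p at 0.1 none can pass a correction.

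**Figure D4:**
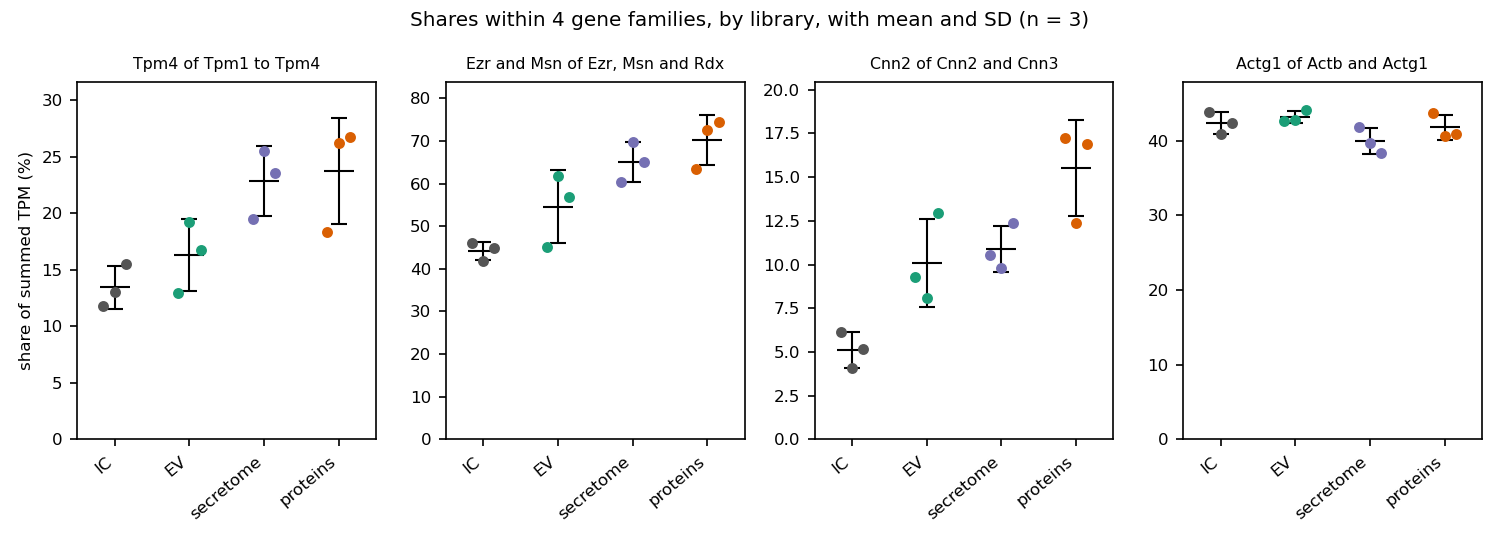
Share of summed TPM in percent (vertical axes from 0) for Tpm4 among 4 tropomyosins, Ezr and Msn among 3 ERM proteins, Cnn2 among 2 calponins and Actg1 among 2 actins; points are libraries, bars are mean and SD (n = 3). The first 3 shares climb from IC to the proteins, from 13.5% to 23.8%, 44.2% to 70.1% and 5.13% to 15.5%, and the actin share stays near 42%.

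Srf, which binds the CArG box and is itself known as an SRF target, was at 15.4, 15.4 and 12.8 TPM in the 3 IC libraries, 16.96, 15.5 and 15.5 after EV, 16.2, 13.1 and 16.5 after the total secretome and 19.3, 15.4 and 17.03 after the 3–100 kDa proteins. The EV libraries stood just above IC and the other treated libraries overlapped with it. Its log2 fold changes of 0.12 after EV, 0.08 after the secretome and 0.26 after the proteins had adjusted p-values of 0.861 or more or, for the proteins, 0.478, and the 95% interval for the proteins was −0.11 to 0.63. Promoter windows of RefSeq (assembly GRCr8, from 250 bases before to 50 after the start) were searched on both strands for the CArG box, without mismatch, and for the TEAD motif GGAATG or its reverse complement CATTCC. Windows were found for 32 of the 39 members. The members include genes listed as known SRF and YAP targets, so an excess of these motifs over all genes is no separate result. A CArG box lay in the window of 4 members, 12.5% of the 32, and in 1.77% of 27457 genes. These were Actg1, Cnn2, Fhl2 and Srf, and 3 of them are printed because Cnn2 rose while Actg1 and Srf did not. The capitals mark the CArG boxes, of which Srf has 2.
Srf, chr9:21923980-21924039, plus strand: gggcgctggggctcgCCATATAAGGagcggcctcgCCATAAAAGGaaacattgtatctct
Cnn2, chr7:10370359-10370398, minus strand: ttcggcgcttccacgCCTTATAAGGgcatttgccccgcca
Actg1, chr10:106121017-106121056, minus strand: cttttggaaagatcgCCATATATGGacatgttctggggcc

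The box of Cnn2 begins 71 bases before the start of its transcript, that of Actg1 90, and those of Srf 81 and 61. Of the 14 members past the nominal threshold as higher after the proteins with a window, 2 held a CArG box, as did 2 of the other 18. The TEAD motif lay in the window of 12 members, 37.5% against 15.0% of all genes, and in 6 of those 14 and 6 of the other 18. The windows of Cyr61, Ctgf and Amotl2 are printed because these known YAP targets did not move alike, and those of Flnc, Vcl, Zyx and Tagln2 because these genes rose. The windows of Actn1, Cnn2, Tpm4, Myl12a and Ezr, which rose as well, held no TEAD motif. Those of Flna, Tpm1 and Pfn1, which passed no threshold against IC, held it. Capitals mark the TEAD motif, and a match is a description of the letters and no evidence that a factor binds there.
Cyr61, chr2:237225782-237225817, minus strand: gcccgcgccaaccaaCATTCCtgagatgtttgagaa
Ctgf, chr1:22624686-22624795, minus strand: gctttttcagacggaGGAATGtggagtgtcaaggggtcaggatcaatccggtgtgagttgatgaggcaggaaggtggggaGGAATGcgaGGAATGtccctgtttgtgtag
Amotl2, chr8:112182535-112182570, plus strand: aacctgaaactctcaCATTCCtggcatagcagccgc
Flnc, chr4:58999411-58999446, plus strand: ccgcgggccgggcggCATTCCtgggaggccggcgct
Vcl, chr15:3404947-3404982, minus strand: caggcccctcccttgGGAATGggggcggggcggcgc
Zyx, chr4:72203780-72203815, plus strand: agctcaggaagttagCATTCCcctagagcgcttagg
Tagln2, chr13:87499223-87499296, plus strand: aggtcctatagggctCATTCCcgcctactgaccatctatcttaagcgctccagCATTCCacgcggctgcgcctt

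Cyr61 encodes a secreted matricellular protein and is a widely used readout of YAP and of SRF. It was at 1.12, 2.04 and 0.405 TPM in the 3 IC libraries, 7.82, 9.41 and 7.704 after EV, 9.61, 18.8 and 29.00 after the total secretome and 13.5, 20.1 and 29.3 after the 3–100 kDa proteins. Each treated library was several times the highest control. Cyr61 rose by 3.36 after the proteins (SE 0.38, adjusted p = 0.00531) and by 3.17 after the secretome (SE 0.45, adjusted p = 0.0175). After EV its log2 fold change was 2.15 (SE 0.30, adjusted p = 0.0731), the largest of the members in that comparison and past the nominal threshold. Without IC replicate 2 the adjusted p after EV was 0.0437, and the other omissions gave up to 0.516.

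Ctgf, its close relative with 3 TEAD motifs in the printed window, moved less. It was at 2.46, 3.81 and 4.19 TPM in the 3 IC libraries, 3.01, 3.35 and 4.49 after EV, 4.31, 5.86 and 6.78 after the total secretome and 3.88, 6.499 and 12.2 after the 3–100 kDa proteins. The protein libraries ranged from within the IC values to about 3 times the highest of them, and the secretome libraries lay just above IC. The log2 fold changes were 0.85 (SE 0.41, adjusted p = 0.356) after the proteins, 0.59 (SE 0.28, adjusted p = 0.359) after the secretome and 0.04 (SE 0.27) after EV. Ctgf passed the nominal threshold after the proteins without protein replicate 1 (log2 fold change 1.22), without rescaling (unadjusted p in limma 0.0494), in the fit of all 12 libraries (0.0402) and with the replicate block (0.0172). Without protein replicate 3 its log2 fold change was 0.43. It passed after the secretome with the replicate block (unadjusted p in limma 0.0158), without secretome replicate 1 (0.0302) or without IC replicate 3 (0.0432). Ankrd1, another standard YAP target, did not exceed 0.257 TPM in any library and was not tested.

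Amotl2 and Lats2 belong to the feedback arm, as YAP targets whose products hold YAP back. Amotl2, an angiomotin that binds YAP, went the other way from Cyr61 and was at 28.9, 27.1 and 24.97 TPM in the 3 IC libraries, 25.4, 22.5 and 23.5 after EV, 17.03, 13.3 and 13.6 after the total secretome and 16.1, 12.4 and 11.8 after the 3–100 kDa proteins. The secretome and protein libraries lay entirely below IC, and the EV libraries overlapped with it. Amotl2 fell by 0.93 after the proteins (SE 0.15, adjusted p = 0.0211) and by 0.82 after the secretome (SE 0.13, adjusted p = 0.024), with −0.18 after EV (adjusted p = 1). Lats2, a kinase that inactivates YAP, ranged from 3.75 to 11.3 TPM and had log2 fold changes of 0.28, 0.43 and 0.63 after EV, the secretome and the proteins, with no call.

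The LIM domain proteins dock on filaments or carry signals from them to the nucleus. Pdlim7 and Pdlim5, which bind α-actinin or tropomyosin through a PDZ domain, were higher after the proteins and the secretome by the nominal threshold. Pdlim7 was at 5.32, 7.56 and 5.62 TPM in the 3 IC libraries, 9.47, 7.79 and 6.06 after EV, 12.1, 10.9 and 8.59 after the total secretome and 13.99, 11.3 and 10.2 after the 3–100 kDa proteins, and the secretome and protein libraries lay above IC. Its log2 fold change was 0.87 (SE 0.20, adjusted p = 0.0673) after the proteins and 0.70 (adjusted p = 0.124) after the secretome, where it fell to 0.58, under the fold of 1.5, without IC replicate 1. Pdlim5 was at 11.6, 6.18 and 9.801 TPM in the 3 IC libraries, 8.497, 11.9 and 15.1 after EV, 13.5, 13.6 and 15.4 after the total secretome and 13.8, 18.9 and 19.9 after the 3–100 kDa proteins. Its EV libraries overlapped with IC and the others did not. The log2 fold change was 0.91 (SE 0.27, adjusted p = 0.132) after the proteins and 0.63 (adjusted p = 0.246) after the secretome, where the nominal threshold was missed without secretome replicate 2 (unadjusted p in limma 0.0595), secretome replicate 3 (0.104) or IC replicate 2 (0.0515).

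Fhl2, a LIM-only cofactor that shuttles between adhesions and nucleus, was at 13.3, 8.05 and 8.73 TPM in the 3 IC libraries, 14.6, 11.98 and 13.8 after EV, 18.4, 11.9 and 16.3 after the total secretome and 21.01, 13.5 and 12.1 after the 3–100 kDa proteins. Its libraries overlapped between IC and each preparation. The log2 fold changes of 0.60 after the proteins and 0.61 after the secretome were past the nominal threshold, and both missed it without IC replicate 2 (log2 fold change 0.47 and 0.48) or IC replicate 3 (0.58 and 0.58). So did the first without protein replicate 1 (0.41), and the second without secretome replicate 1 (0.54) or replicate 3 (0.52). Quantile scaling put both under the fold of 1.5 (0.57 and 0.58), as did leaving out the rescaling for the first (0.58). Lmcd1, a LIM protein that represses GATA factors, was low and was at 2.21, 4.28 and 3.12 TPM in the 3 IC libraries, 0, 0.776 and 0.476 after EV, 0.480, 1.04 and 0.954 after the total secretome and 0.608, 0.538 and 0 after the 3–100 kDa proteins. Every treated library was below every IC library, and it was the only member lower past the nominal threshold after EV. After EV and after the proteins no treated library reached 1 TPM, so Lmcd1 passed the filter through IC alone, could be called only as lower, and is given as a description. The log2 fold change of Lmcd1 was −1.60 after the proteins (SE 0.30, adjusted p = 0.0354, or 0.0472 over all genes without a filter), with adjusted p-values of 0.0663 to 0.158 when 1 protein library was left out. It was −1.59 after EV (adjusted p = 0.261) and −1.17 after the secretome (adjusted p = 0.0943). Csrp1 ranged from 20.4 to 48.2 TPM with no call.

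The preparations were next compared with each other directly, without IC, at doses that differ (10, 15 and 45 µg/mL). EV libraries were lower than the protein libraries for 11 of 36 members by the nominal threshold, against 3.56% of all genes, and higher for 1, against 1.58%. The 1 higher member was Amotl2, at 0.77. At an adjusted p under 0.05 Actn1 (−1.30, SE 0.15, adjusted p = 0.0182) and Zyx (−0.998, SE 0.14, adjusted p = 0.0426, or 0.0685 with no filter) were lower after EV, against 0.495% of all genes. Libraries of these 2 groups that share a replicate number deviated together. That pairing was read from these same libraries, and the numbers did not pair for EV or for the proteins against IC. Beside the fit above, the fit with the number as a block is given. It gave 11 members at an adjusted p under 0.05, namely Actn1 (adjusted p = 0.00619), Vcl (−1.53, adjusted p = 0.00442), Zyx, Tagln, Tagln2, Cnn2 (−0.91, adjusted p = 0.0117), Tpm4, Myl12a, Ezr (−1.17, adjusted p = 0.0095) and Msn as lower and Amotl2 as higher after EV, where that fit called 2.13% of all genes as lower and 0.542% as higher. Msn (−0.83) was thereby added to the nominal calls, as was Ctgf (−0.80). Without the block, the adjusted p of Actn1 was under 0.05 in 2 of the 6 single omissions and that of Zyx in 1, and the count of 2 became 0 without EV replicate 2, EV replicate 3, protein replicate 2 or protein replicate 3, 1 without protein replicate 1 and 3 without EV replicate 1.

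EV against the total secretome gave 7 members lower after EV and 1 higher by the nominal threshold out of 35, beside 2.57% and 1.43% of all genes. The lower ones were Actn1 (−0.99, SE 0.14, adjusted p = 0.0506), Vcl, Zyx, Tpm4, Myl12a, Ezr and Cyr61, and the higher one Amotl2. None had an adjusted p under 0.05 in limma, 10 had an unadjusted p under 0.05, and the fit of all 12 libraries gave 2 at an adjusted p under 0.05. The counts of 10 and 2 are given without the share of all genes and are a description. The replicate block, read the same way, added Flnc (−0.69) to the nominal calls. The count of 8 became 5 without secretome replicate 2. The call of Cyr61 (log2 fold change −1.01) was lost in 5 of the 6 omissions, with 0.61 lower after EV without secretome replicate 3, and those of Tpm4 and Myl12a in 2 and 3 of them. That of Myl12a was also lost without rescaling, at −0.58.

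The secretome against the proteins gave the fewest calls. No member was higher after the secretome by the nominal threshold (all genes, 0.527%), and 2 of 35 were lower (all genes, 0.716%), Tagln at −1.002 (SE 0.26, adjusted p = 1) and Flnc at −1.04 (SE 0.44, adjusted p = 1). None had an adjusted p under 0.05, in the separate fit or in that of all 12 libraries. An unadjusted p under 0.05 was found for 4, a count given without the share of all genes. Flnc missed the threshold without secretome replicate 1 (log2 fold change −0.58), protein replicate 2 (−1.12) or protein replicate 3 (−0.70). It also missed it with no filter on low values (unadjusted p in limma 0.0599), in the fit of all 12 libraries (0.0562) and without the variance trend (0.0627). For Actn1 the difference was −0.30 (95% interval −0.64 to 0.04) and for Cyr61 −0.19 (−1.24 to 0.86). These intervals, from the fit without the block, leave room for differences in either direction. With the block the unadjusted p in limma was 0.0146 for Actn1 (adjusted p = 0.736) and 0.217 for Cyr61 (adjusted p = 0.999). Of the 35 members 31 lay below 0 and 4 above, with a median of −0.17, beside 0.0006 for all genes. With the replicate block Vcl was past the nominal threshold as well, at −0.62.

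Other genes of actin assembly, taken from lists written by role, mostly passed no threshold. Their counts stand beside the shares of all genes past the nominal threshold, which were 1.56% as higher and 0.596% as lower after EV, 6.63% and 3.39% after the proteins and 5.55% and 2.54% after the secretome. Of the 19 genes of the branching complex Arp2/3 and its activators, 1 was higher past the nominal threshold after each preparation, the subunit Arpc1b. It was at 1.69, 3.66 and 3.81 TPM in the 3 IC libraries, 8.12, 10.7 and 8.61 after EV, 6.02, 13.5 and 14.6 after the total secretome and 12.4, 13.5 and 12.2 after the 3–100 kDa proteins, with no overlap between IC and any preparation, and rose by 1.82 after the proteins (adjusted p = 0.0161). After the secretome its log2 fold change was 1.58 (adjusted p = 0.112, or 0.0141 with the block). Among 11 formins and Ena/VASP proteins, which elongate filaments, 3 were higher after the proteins, 2 were higher and 1 lower after the secretome, and none passed after EV. Vasp, which partners with zyxin at adhesions, rose by 1.24 after the proteins (adjusted p = 0.00519) and Fmnl1 by 0.84 (adjusted p = 0.0396, or 0.0647 with no filter), and Diaph3 was 0.80 higher (adjusted p = 0.217). In the direct contrast Vasp was lower after EV than after the proteins by 0.98 (adjusted p = 0.0426, or 0.0685 with no filter). With the block, Diaph3 was past the nominal threshold after the secretome as well (0.73). Of 20 genes of filament turnover 1 passed, after the proteins alone. After EV none of the genes of these last 2 lists had an unadjusted p under 0.05. The turnover gene was Wdr1, a helper of cofilin, at 0.67 (adjusted p = 0.0257). With the block, it was lower after EV than after the proteins by 0.52 (adjusted p = 0.0336), and the formin gene Daam1 was higher by 0.51 (adjusted p = 0.0348).

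Of 15 genes of the focal adhesion plaque, 3 were higher and 1 lower after the proteins (all genes, 6.63% and 3.39%). After the secretome 2 were higher (all genes, 5.55%). None passed after EV, where no gene of the list had an unadjusted p under 0.05. The list shares Vasp with the formins. Beside Vasp the genes called after the proteins were Tns1 (0.86), Lpp (0.88) and, lower, Tns3 (−0.65), none of these 3 with an adjusted p under 0.05. With the block, Lpp was past the nominal threshold after the secretome (0.66). Daam1, Diaph3, Lpp, Egr1 after the secretome, Fos after the proteins, Junb after the proteins and the secretome, Ajuba and Yap1 fall outside the rule for named genes and were named after their values were seen. The medians of these 4 lists after the proteins were between 0.12 and 0.28 on the log2 scale, where the 39 genes had 0.62 and all genes −0.02.

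The cofactors and other targets of SRF were listed as well. Of 4 SRF cofactors tested, Elk3, a ternary complex factor, was the one past the nominal threshold, at 0.65 after EV (adjusted p = 1), 1.14 after the secretome (adjusted p = 0.0607) and 1.34 after the proteins, where it rose (adjusted p = 0.0103). Mkl1, which encodes the cofactor MRTF-A, ranged from 11.2 to 16.4 TPM with no call. All 7 immediate early genes tested were higher past the nominal threshold after the proteins and after the secretome, and 3 of 5 after EV. The filter set part of this difference. Egr2 and Fosb passed it after the proteins and the secretome through the treated libraries alone, where they could be called only as higher, and they did not pass it after EV. Without a filter their log2 fold changes after EV were 0.70 and 0.15 (adjusted p = 1 for both), and Egr2 joined the nominal calls, which made 4 of 7. Egr1 was at 13.04, 11.8 and 9.94 TPM in the 3 IC libraries, 24.04, 23.97 and 23.7 after EV, 35.2, 62.3 and 64.4 after the total secretome and 67.2, 119 and 94.3 after the 3–100 kDa proteins, with each preparation clear of IC. It rose by 2.91 after the proteins (adjusted p = 0.00129) and by 2.10 after the secretome (adjusted p = 0.0116).

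Egr2 and Fosb were near 0 in IC, and their log2 fold changes are a description of what the filter let through, after the proteins (4.14 and 2.82, adjusted p = 0.00129 and 0.00215) and after the secretome (3.45 and 2.97, adjusted p = 0.00312 and 0.00318). Fos and Junb followed another order. Junb had log2 fold changes of 1.34 after EV (adjusted p = 0.0648), 0.77 after the proteins (adjusted p = 0.0914) and 0.73 after the secretome (adjusted p = 0.157), each past the nominal threshold. Fos was at 4.46, 4.05 and 2.24 TPM in the 3 IC libraries, 21.8, 19.4 and 15.3 after EV, 15.5, 22.5 and 21.6 after the total secretome and 7.500, 11.2 and 13.04 after the 3–100 kDa proteins, and it rose by 2.13 after EV (adjusted p = 0.0397, or 0.0918 with no filter) and by 2.23 after the secretome (adjusted p = 0.0088), with 1.37 after the proteins (adjusted p = 0.0512). In the direct contrast of EV with the proteins, Fosb (−2.67), Egr1 (−1.91) and Egr2 (−3.44) were lower after EV, with adjusted p-values of 0.0135, 0.0182 and 0.0182 (Fosb was tested through the protein libraries alone), and Fos was 0.77 higher, past the nominal threshold alone (adjusted p = 0.373), while Junb was 0.58 higher, under the fold of 1.5 (adjusted p = 0.378). With the block, Egr2 was also past the nominal threshold as lower after the secretome than after the proteins (−0.69).

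In the Hippo and YAP/TEAD list the nominal threshold was passed, always as higher, by 1 of 16 genes tested after EV, 4 of 16 after the proteins and 5 of 17 after the secretome, beside 1.56%, 6.63% and 5.55% of all genes, and no adjusted p was under 0.05 in limma, with or without the block, against IC. The unadjusted p was under 0.05 for 1, 7 and 7 genes of the list, counts given without the share of all genes at that threshold. Wwtr1, which encodes the YAP relative TAZ, was at 3.77, 2.92 and 3.81 TPM in the 3 IC libraries, 2.99, 8.61 and 6.73 after EV, 6.14, 9.02 and 6.35 after the total secretome and 5.06, 12.4 and 11.1 after the 3–100 kDa proteins. Replicate 1 of each preparation was the lowest, and for EV it lay within the IC range. Its log2 fold change was 1.17 after the proteins (adjusted p = 0.124) and 0.86 after the secretome (adjusted p = 0.106). Tead1 was 1.10 and 1.003 higher and Amotl1, an angiomotin like Amotl2, 0.72 and 0.95, so Amotl1 and Amotl2 took opposite signs after both preparations. Amotl1 was also the gene past the threshold after EV (0.61, adjusted p = 1). Ajuba passed after the proteins and the secretome (0.74 and 0.74), and Yap1 after the secretome (0.60). On the rescaled values Ajuba passed the filter after the proteins through the protein libraries alone and could be called there only as higher, so it is a description in the count of 4. With the block, Tead1 was lower after EV than after the proteins by 0.81 (adjusted p = 0.0383), and the nominal threshold was passed by Wwtr1 in the same contrast (−0.60) and by Tead1 against the secretome (−0.71).

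Markers of the glia and of other cells are given beside these changes. Of the 9 astrocyte markers 1 was past the nominal threshold after EV and after the secretome and none after the proteins. This was Gfap, the astrocyte filament protein, at 85.1, 361 and 128 TPM in the 3 IC libraries, 491, 617 and 362 after EV, 271, 635 and 408 after the total secretome and 242, 447 and 310.3 after the 3–100 kDa proteins, with 1 IC library far above the other 2. Its log2 fold change was 1.58 after EV (adjusted p = 1) and 1.40 after the secretome (adjusted p = 0.269, or 0.0256 with the block). The summed astrocyte markers were at 1051 to 1523 TPM in IC, 1310 to 1748 after EV, 1447 to 1847 after the secretome and 1261 to 1657 after the proteins. No neuron marker of 10 passed in any comparison with IC. Their sum was 3877 to 4030 TPM in IC, 3694 to 4055 after EV, 3157 to 3951 after the secretome and 3260 to 3811 after the proteins, so every protein library was below every IC library. Of the oligodendrocyte markers 2 of 8 tested, Olig1 and Sox10, were lower after the proteins (−0.59 and −0.79, neither with an adjusted p under 0.05). Olig1 was 0.60 higher after EV than after the proteins (adjusted p = 0.0412 with the block). The list summed to 227 to 306 TPM in IC, 236 to 277 after EV, 284 to 335 after the secretome and 161 to 246 after the proteins. After the secretome 6 of the 8 were above 0 and 2 below, none past the nominal threshold. Of the meningeal fibroblast markers 6 of 8 were under 1 TPM in all 12 libraries, the list summed to at most 4.34 TPM, and Col1a1 was higher after the proteins (1.29, 1.64 and 1.81 TPM, against 0.360, 0.0365 and 0.261 in IC, adjusted p = 0.0567), tested through the protein libraries alone. The one other gene of that list to be tested was Pdgfrb, lower after each preparation as given above. The part of these cell types in the changes of the 39 genes was not tested.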

How the data were processed

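Total RNA of 12 rat cortical cultures was sequenced from strand-specific mRNA libraries. Per the article's methods the authors used Trimmomatic and Cutadapt for trimming, Salmon for quantification on Ensembl transcripts of rn6 (Rnor_6.0), where the genome served as a decoy, and tximport to reach gene level. The files do not name their unit. The deposited columns are not whole and each sums to 1000000, so they were read as TPM. TPM keep no depth, so no counting interval or floor was given, and a listed 0 may be a failed estimate.

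Rows of one gene name were summed (32285 rows, 28111 names), and groups were taken from the labels. Each pair of groups was fitted with limma 3.58.1 in R 4.3.3 (linear model, moderated variance with trend) on log2(TPM + 1) after rescaling by median-of-ratios factors, for genes that reached 1 TPM in 3 or more of 6 libraries, with Benjamini-Hochberg adjustment over all genes tested. Family shares were compared by two-sided exact permutation tests. The scripts were tested on simulated data. The 39 members and the 7 pathway and 7 cell marker lists were chosen with earlier results of these data known. Every library is given for members past a threshold against IC and for Actb, Actg1, Srf, Cyr61 and Ctgf, and up to 3 genes of lowest p are named per pathway list.

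The labels number the libraries of each group 1 to 3, and the correlation of same-numbered libraries' deviations from their group means was checked. It was 0.159 to 0.247 for the secretome and IC, 0.288 to 0.59 for EV and the proteins, 0.186 to 0.263 for EV and the secretome and 0.215 to 0.38 for the secretome and the proteins. A comparison was read as paired by the data where each correlation was over 0.1, which held for these 4. The article's supplement names a day covariate for IC and EV, and no source used here ties a replicate number to a day or culture. For these 4, fits with the number as a block are given where they change a call of a member. The deposited values of Myl6, Mkl2, Ier2, Mcl1 and Pecam1 were not used here. A further pathway list is not reported here. Alternatives were other pseudocounts, filters and scalings, a fit of all 12 libraries, the replicate block and each library left out.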

Additional observations from a re-analysis of the deposited data

Results flagged for a closer look

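The effects of EV and of the 3–100 kDa proteins differed from each other, by the direct test between their libraries, for Actn1 and Zyx. Actn1 was lower after EV by 1.30 on the log2 scale and lower in 3 of 3 EV libraries (limma, adjusted p = 0.0182), with 30.4, 34.5 and 31.97 TPM against 69.9, 83.9 and 85.3, a log2 fold change of −1.30. Zyx was lower by 0.998, again in 3 of 3 (adjusted p = 0.0426), with 19.96, 19.3 and 18.6 TPM against 34.5, 43.7 and 38.6, a log2 fold change of −0.998. The doses were 10 and 15 µg/mL, so preparation and dose cannot be told apart. With single libraries left out, the adjusted p ranged from 0.0238 to 0.153 for Actn1 and from 0.0462 to 0.325 for Zyx, whose adjusted p was also 0.0685 with no filter on low values.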

How the results depend on the processing

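Counts of members past an unadjusted p of 0.05 and a fold of 1.5 in limma were 7 for EV against IC (5 to 9 with 1 library left out), 17 for the proteins (15 to 19), 18 for the secretome (15 to 18), 12 for EV against the proteins (12 to 16), 8 for EV against the secretome (5 to 11, with 5 without secretome replicate 2) and 2 for the secretome against the proteins (1 to 5). Other pseudocounts, filters, scalings and fits kept them at 6 to 9, 16 to 19, 17 to 20, 12 to 14, 7 to 9 and 1 to 3. The one count they moved by over 1.5 times was the last, with 1 member in the fit of all 12 libraries and 1 without the variance trend. The replicate block gave 9, 19, 20, 14, 9 and 3, and in the 4 paired comparisons it added the calls named with the results. For EV and for the proteins against IC the same-numbered libraries did not pair (correlations of −0.181 to 0.542 and −0.251 to 0.254), so their block counts of 9 and 19 rest on a number that no source used here ties to a culture or day. That block added nominal calls of Tagln (unadjusted p in limma 0.0239) and Myh9 (0.048) after EV and of Capg (0.0256) and Ctgf (0.0172) after the proteins. After the proteins its adjusted p was 0.042 for Msn (0.0658 without it), 0.0874 for Amotl2 (0.0211) and 0.0859 for Lmcd1 (0.0354).

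Counts at an adjusted p under 0.05 were less even, and they are given without the share of all genes in each setting. EV against IC gave 1 member without IC replicate 2 (Cyr61) and 2 in the fit of all 12 libraries. EV against the proteins gave 6 in that fit and 11 with the block, where the separate fit gave 2, and Zyx was over 0.05 with no filter (0.0685), without rescaling (0.0527) and without the variance trend (0.0589). EV against the secretome gave 2 in the fit of all 12 libraries and 1 each without rescaling, with quantile scaling and without EV replicate 1. Against IC, calls also ended in some settings other than omissions and the block. With no filter these were Tagln after the proteins and Flnc, Tpm4 and Myl12a after the secretome, as given with the results. A pseudocount of 0.1 gave 0.0511 for Tagln and 0.101 for Lmcd1 after the proteins and 0.051 for Myl12a after the secretome. Quantile scaling gave 0.0533 for Tagln. Without the variance trend Tagln had 0.0571 after the proteins, and Tpm4 and Myl12a had 0.0513 and 0.0603 after the secretome. A minimum of 5 TPM left Lmcd1 untested. Calls were gained after the proteins by Actn4 (0.0376) and Pdlim7 (0.0182) in the fit of all 12 libraries, by Msn (0.0447) without rescaling and by Acta2 with no filter. Of the other genes, Fos after EV had 0.0514 with a pseudocount of 0.1 and 0.0569 with a minimum of 5 TPM, and Fmnl1 and Wdr1 after the proteins had 0.0826 and 0.0902 without rescaling.

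For members with a nominal call, in the comparison that gave it, and for Actb, Actg1, Srf, Cyr61 and Ctgf against IC, 1146 alternative values kept their direction and their side of the nominal threshold, 44 lost the threshold, 7 gained it and 7 changed sign. Over all members against IC, none of the 42 nominal calls changed sign between single omissions. Of the 67 values without a call, 20 did, such as Csrp1 (−0.310 to 0.210), Tmsb10 (−0.361 to 0.161) and Capg (−0.105 to 0.403) after EV, and 14 passed the nominal threshold in 1 or more omissions, Tagln, Myh9, Ezr and Msn after EV, Cnn3, Myl9, Pfn1, Capg, Ctgf and Lats2 after the proteins and Myl9, Pfn1, Capg and Ctgf after the secretome. With 1 library left out, the log2 fold change after EV ranged from −0.0391 (without EV replicate 3) to 0.0564 for Actb, which also had −0.00227 without IC replicate 1, from −0.0202 (without EV replicate 3) to 0.113 for Actg1, and from −0.169 (without IC replicate 1) to 0.195 for Ctgf, which also had −0.107 without EV replicate 3. After the secretome it ranged from −0.00795 (without IC replicate 2) to 0.0911 for Actg1 and from −0.0240 (without secretome replicate 3) to 0.185 for Srf. No scaling moved the median of all genes by as much as 0.1 on the log2 scale. Depth is unknown in TPM, so low genes such as Acta2, Ankrd1, Lmcd1 and Cyr61 in IC carry an error that 3 libraries alone describe.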
